A study of Mus musculus with 3 samples.

Results

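CELF1 clusters that lie in introns within 300 nt of an exon were described in adult mouse heart ventricle, in adult mouse muscle and in cultured C2C12 myoblasts, which are an established mouse line of precursors of muscle fibres. A cluster is a short stretch of RNA that held more crosslinked reads than a model of its gene's expression and length allowed, as found by CLIP-seq, in which UV light fixes a protein to the RNA it touches before the protein is pulled down. A cluster was taken as near-exon when its midpoint fell in an intron of its own gene, on the gene's strand, no more than 300 nt from the nearer exon edge. This held for 5226 of 72222 clusters, which were 3098 of 42263 in heart, 1618 of 24844 in muscle and 510 of 5115 in myoblasts. Upstream clusters precede the nearer exon and so lie on the side of its 3′ splice site, and downstream clusters follow the exon, on the side of its 5′ splice site. Intronic clusters farther than 300 nt from every exon, 33366 in all, are called deep.

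The heart ventricle and muscle samples came from C57/BL6 mice that were 16 weeks old, and the myoblasts were grown in culture. Endogenous CELF1 was pulled down with the monoclonal antibody 3B1 in every library, and the labels name no transgene or treatment. The sources used here do not give the number of mice behind a tissue library or the muscle that was taken. With 1 library per source, all intervals and tests below cover counting error only and compare libraries, not sources, and clusters of the same gene are not independent of each other. Both tissues hold several cell types. Of 8 heart markers, 8 had a cluster in heart, 2 in muscle and 1 in myoblasts, and of 8 skeletal muscle markers 6, 8 and 0 did. Of 7 markers of cycling myoblasts 2, 2 and 5 did, with none in Myf5 or Mki67 in the myoblasts. Endothelial markers had clusters in 5, 3 and 0 of 5 genes, and fibroblast and matrix markers in 2 of 5 genes in each library. In these samples fewer cells of a type and less RNA per cell cannot be told apart. A gene that is weakly expressed can fall short of a cluster, so the absence of a cluster does not separate lack of binding from lack of RNA.

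CELF1 (also CUGBP1) binds RNA rich in UGU and GU and acts in the nucleus on alternative splicing and in the cytoplasm on mRNA stability and translation. Splicing factors often act from the intron beside an exon, where the place of binding, before or after the exon, can set whether the exon is included or skipped. In the muscle disease myotonic dystrophy, CELF1 is raised and MBNL proteins, which antagonise many of its splicing effects, are sequestered.

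At 38 sites in 35 genes, near-exon clusters of all 3 libraries shared bases. The stretch common to the 3 clusters at a site is shown here for some of the longest of these sites beside internal exons with annotated splice sites, because these are the near-exon stretches seen again in each source. Sequences are RNA, written 5′ to 3′, with every UGU in capitals and all positions in mm9. Upstream of an exon these were 5 stretches.
Arhgef1 (chr7:25704000-25704071, plus strand): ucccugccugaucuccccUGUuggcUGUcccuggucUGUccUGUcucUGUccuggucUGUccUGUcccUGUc
Fnip1 (chr11:54295946-54296004, plus strand): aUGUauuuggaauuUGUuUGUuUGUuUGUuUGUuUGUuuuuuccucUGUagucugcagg
Eif4e (chr3:138213144-138213184, plus strand): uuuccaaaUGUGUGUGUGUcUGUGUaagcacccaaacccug
Ptbp2 (chr3:119427719-119427759, minus strand): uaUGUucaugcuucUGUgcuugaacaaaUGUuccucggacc
Braf (chr6:39615354-39615389, minus strand): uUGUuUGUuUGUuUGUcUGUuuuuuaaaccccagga

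Downstream of an exon these were 4 stretches.
Fgfr1 (chr8:26674192-26674240, plus strand): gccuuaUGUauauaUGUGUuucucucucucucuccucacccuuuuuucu
Mbnl1 (chr3:60419962-60420008, plus strand): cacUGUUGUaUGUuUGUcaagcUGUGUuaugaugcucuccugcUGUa
Pfdn5 (chr15:102157261-102157303, plus strand): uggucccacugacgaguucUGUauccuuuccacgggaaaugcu
Ubap2 (chr4:41170127-41170169, minus strand): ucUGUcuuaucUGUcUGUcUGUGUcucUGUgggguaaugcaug

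A further 4 stretches lay beside annotated cassette exons, which are exons that at least 1 protein-coding transcript of the gene skips. The stretches in Arhgef1, Fgfr1 and Pfdn5 above also lay beside such exons.
Pam (chr1:99819403-99819442, minus strand): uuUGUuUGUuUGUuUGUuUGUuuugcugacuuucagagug
Ppp3cb (chr14:21322663-21322698, minus strand): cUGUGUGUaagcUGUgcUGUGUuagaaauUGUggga
Pdlim5 (chr3:141969346-141969380, minus strand): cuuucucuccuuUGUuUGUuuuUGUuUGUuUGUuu
Braf (chr6:39596874-39596903, minus strand): cauuucuucUGUGUGUcUGUcuuccUGUGU

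The common stretch in Arhgef1, which encodes a guanine nucleotide exchange factor for the GTPase RhoA, was the longest at 72 nt and held 8 UGU counted with overlaps. In Fnip1, for a partner of folliculin, the stretch ran across the 3′ splice site into the exon, and its repeated UGU lay just before the splice site. The stretch in Pfdn5, for a prefoldin subunit, instead crossed a 5′ splice site and held 1 UGU, and its midpoints lay 2, 4 and 2 nt into the intron in heart, muscle and myoblasts. Mbnl1 and Ptbp2 encode splicing regulators, and Eif4e the cap-binding initiation factor.

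Over the 38 sites, 17 lay upstream and 21 downstream of the exon, and 37 faced an annotated splice site. The common stretches had a median length of 35 nt and ranged between 17 and 72 nt, with a median of 4 UGU. A lone stretch, in an intron of Tyw1, held no UGU. It was almost wholly a run of cytosines, and Tyw1 was chosen for mention after its sequence was seen. Among the 32 sites beside internal exons, 8 were beside annotated cassette exons, of 15 to 168 nt, and 6 of these 8 had lengths divisible by 3. Over all near-exon clusters, cassette exons were 12.3% to 26.04% of the internal exons beside them, by library and side. Of all cassette exons of genes with a cluster, 56.6% to 57.4% have lengths divisible by 3. The small counts at the common sites were not tested against these shares. Of all 38 sites, Braf, Epn1 and Mef2d held a pair each. Braf encodes a RAF kinase, Epn1 an endocytic adaptor and Mef2d a muscle transcription factor.

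**Figure D1:**
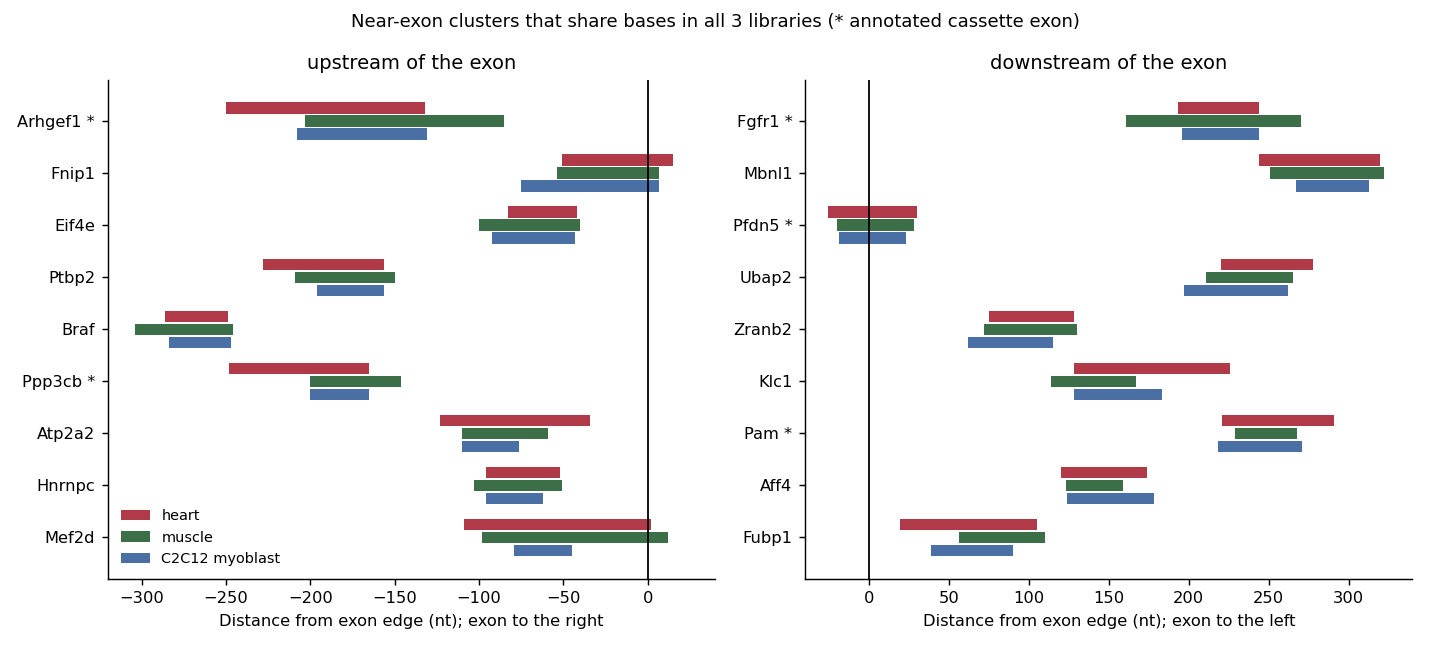
Near-exon clusters at 18 sites where the heart, muscle and C2C12 myoblast clusters share bases, drawn by distance from the exon edge in nt (x axis, exon edge at 0), 1 site per gene name, with 9 of the longest common stretches beside internal exons on each side. Bars are the clusters of each library. The 3 clusters of each site overlap, and those of Fnip1 and Pfdn5, and the heart and muscle clusters of Mef2d, cross the exon edge.

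A pair of these sites lay beside very short cassette exons of muscle genes and is shown with the exon, in capitals here. They were chosen after their values were seen. Pdlim5 encodes a Z-disc protein that links kinases to alpha-actinin, and its site lay before an exon of 15 nt (chr3:141969248-141969262, minus strand). In Mef2d the site lay after an exon of 21 nt (chr3:87965703-87965723, plus strand). The midpoints of the heart, muscle and myoblast clusters lay 74, 74 and 106 nt from the Pdlim5 exon and 79, 70 and 118 nt from the Mef2d exon.
Pdlim5 (chr3:141969248-141969380, minus strand): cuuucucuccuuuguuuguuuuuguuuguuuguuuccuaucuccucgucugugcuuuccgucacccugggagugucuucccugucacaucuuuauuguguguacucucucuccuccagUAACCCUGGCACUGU
Mef2d (chr3:87965703-87965836, plus strand): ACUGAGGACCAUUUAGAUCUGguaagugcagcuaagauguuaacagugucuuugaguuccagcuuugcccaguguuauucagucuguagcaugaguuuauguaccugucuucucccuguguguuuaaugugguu

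Near-exon clusters were a minor share of intronic clusters, and the share was lower in heart than in the other libraries. In heart 12.5% of 24772 intronic clusters were near-exon (95% exact Clopper-Pearson interval 12.1% to 12.9%), in muscle 15.1% of 10728 (14.4% to 15.8%) and in myoblasts 16.5% of 3092 (15.2% to 17.9%). Heart minus muscle was -2.58 percentage points (two-sided Fisher's exact test, p = 7.65e-10, here and below after Benjamini-Hochberg adjustment over all 18 tests) and heart minus myoblasts -3.99 points (exact p = 9.64e-09). Muscle minus myoblasts was -1.41 points and was not called (exact p = 0.131). When each gene counted at most once as near-exon and once as deep, the order turned round, with 29.9% in heart, 27.4% in muscle and 22.7% in myoblasts, so that heart was 2.50 points above muscle (exact p = 0.0239) and 7.13 points above myoblasts (p = 4.53e-09), and muscle 4.63 points above myoblasts (p = 0.000773). Without Ttn, the gene with the most near-exon clusters, muscle minus myoblasts was -2.03 points (exact p = 0.0133).

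Per length of intron, CELF1 clusters were denser beside exons than deep in introns. Each density pools all genes with a cluster in the library, and near-exon and deep density were not compared within genes. In heart there were 58.8 clusters per Mb of intron upstream of exons (exact Poisson interval 55.7 to 62.0) and 78.2 downstream (74.6 to 81.9), against 50.5 in deep intron (49.9 to 51.2). In muscle these densities were 40.8 (37.9 to 43.8) and 49.5 (46.3 to 52.9), against 27.5 (26.9 to 28.1). In myoblasts they were 26.03 (23.0 to 29.3) and 23.7 (20.8 to 26.9), against 12.004 (11.5 to 12.5). The interval of the near-exon density lay above that of the deep density on each side in each library, and the intervals of the upstream and downstream sides did not overlap in heart or muscle but did in myoblasts. Deep density here pools positions nearer to the following exon (upstream) and to the preceding exon (downstream), and it differed between these. At 1001 to 5000 nt it was 45.2 upstream and 57.2 downstream in heart, 25.1 and 34.0 in muscle and 13.8 and 14.1 in myoblasts. The pooled value therefore does not show on which side the excess near exons is larger. No test was made on densities, and densities cannot be compared between libraries, which differ in depth.

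In introns longer than 2000 nt, an alternative chosen after the data were seen, all near-exon densities stayed above deep density. Heart had 56.2 upstream (51.9 to 60.9) and 84.4 downstream (79.1 to 90.02) against 50.5 deep, muscle 33.7 (29.97 to 37.8) and 51.6 (46.9 to 56.6) against 27.3, and myoblasts 23.3 (19.3 to 27.9) and 22.9 (19.0 to 27.5) against 11.8. Near-exon clusters lay in shorter introns, with a median length of 1999.5 nt in heart, 1810 nt in muscle and 1845.5 nt in myoblasts, against 24789.5, 20247.5 and 20092 nt for deep clusters. First introns, which are often the longest of a gene, held 4.36%, 3.09% and 6.08% of near-exon clusters in heart, muscle and myoblasts, against 23.1%, 22.6% and 23.1% of deep clusters.

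Within the 300 nt, binding was uneven in the tissues. Downstream of exons, heart density was 67.7 per Mb (57.3 to 79.5) in the 25 nt nearest to the exon, 107 (93.6 to 122) at 26 to 50 nt, 92.7 (83.5 to 103) at 51 to 100 nt and 66.9 (60.8 to 73.3) at 201 to 300 nt. Muscle density downstream was 45.8 (36.3 to 57.0), 59.9 (48.9 to 72.7), 65.2 (56.6 to 74.7) and 38.1 (33.1 to 43.7) in the same bins. Both tissues had their densest stretch between 26 and 100 nt after the exon.

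Upstream of exons, density in both tissues was highest at 51 to 100 nt before the exon, farther from the exon than the usual branch point and pyrimidine tract. It was 76.8 per Mb there in heart (68.5 to 85.8) against 64.6 (54.4 to 76.1) in the nearest 25 nt, 54.6 (45.2 to 65.3) at 26 to 50 nt and 47.9 (42.8 to 53.4) at 201 to 300 nt. In muscle it was 57.6 (49.6 to 66.6) against 30.4 (22.7 to 39.7), 33.7 (25.6 to 43.6) and 35.1 (30.3 to 40.5). The excess on the downstream side was not limited to the 300 nt. More than 5000 nt from every exon, density was 36.6 per Mb in heart where the following exon was nearer, against 61.5 where the preceding one was, 17.8 against 31.7 in muscle and 7.41 against 11.9 in myoblasts. Myoblasts, with 267 upstream and 243 downstream clusters, gave intervals that overlapped between all bins within 300 nt on each side.

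**Figure D2:**
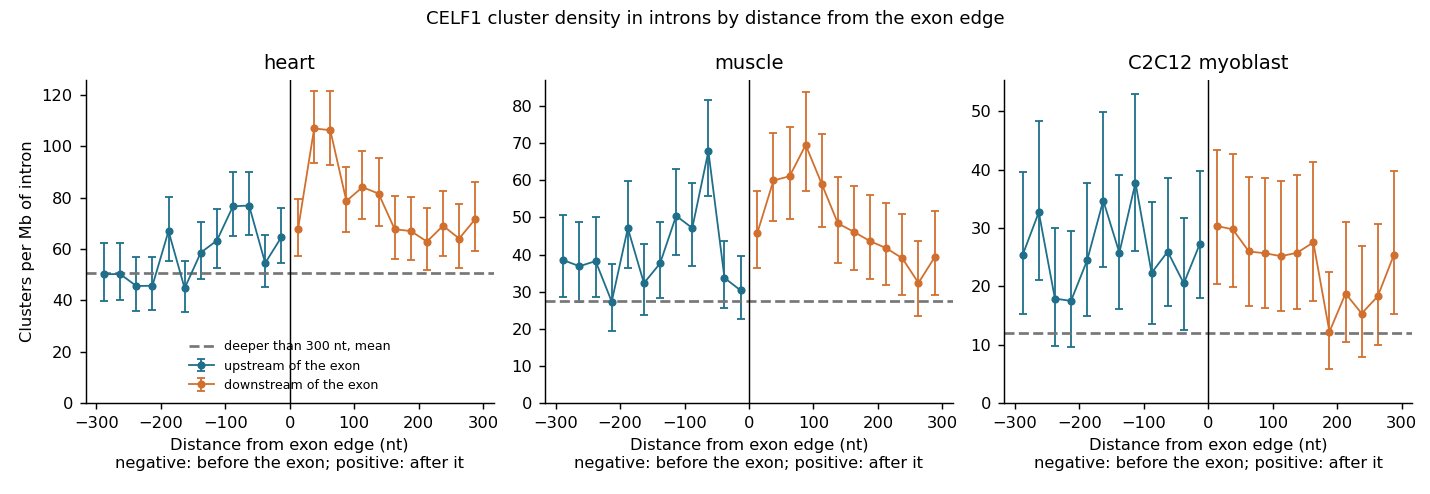
Clusters per Mb of annotated intron (y axis) in 25 nt bins by distance from the exon edge in nt (x axis, before the exon negative and after it positive) in heart, muscle and C2C12 myoblasts. The y axes differ between panels. Points are bin values and bars exact 95% Poisson intervals. The dashed line is the mean density deeper than 300 nt over both sides, which is 50.5, 27.5 and 12.004. The tissues show a hump 26 to 100 nt after the exon and another 51 to 100 nt before it.

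At the border of the 300 nt window, heart had 82 upstream and 117 downstream clusters at 276 to 300 nt and 85 and 88 in the next 25 nt. Muscle had 50 and 51 inside against 33 and 44 outside, and myoblasts 19 and 19 against 13 and 8.

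Fewer near-exon clusters lay upstream than downstream in the tissues, and the upstream share was lower there than in myoblasts. Deep clusters were also fewer upstream, in the myoblasts as well as in the tissues, which was not tested. In heart 42.9% of near-exon clusters lay upstream (41.2% to 44.7%, 1330 of 3098), in muscle 45.2% (42.7% to 47.6%, 731 of 1618) and in myoblasts 52.4% (47.9% to 56.8%, 267 of 510). Heart minus myoblasts was -9.42 points (Fisher's exact test, adjusted p = 0.000236) and muscle minus myoblasts -7.17 points (p = 0.0132). Heart minus muscle was -2.25 points (exact p = 0.263). The differences from myoblasts were no longer called with a window of 150 nt (-6.47 points, exact p = 0.113 for heart and -5.70 points, p = 0.246 for muscle) or with clusters of at least 40 nt only (-2.69 points, p = 0.9 and -0.651 points, p = 1). Myoblast near-exon clusters had a median width of 37 nt, against 53 nt in heart and 50 nt in muscle.

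Some near-exon clusters reached into the exon itself. A base in an annotated exon was found for 11.3% of them in heart, 9.39% in muscle and 9.80% in myoblasts. For 271, 156 and 53 clusters an exon lay within 300 nt on each side, in which case the nearer edge gave the side. Edges that are no splice site, such as a transcript start or end inside the gene, were nearest for 38 upstream and 69 downstream clusters in heart, 22 and 37 in muscle and 5 and 5 in myoblasts. The midpoints of 8.23%, 8.10% and 7.84% of near-exon clusters lay in an exon of another transcript of the gene that is not protein-coding, such as a retained intron.

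UGU, the core of the CELF1 motif, stood in nearly all near-exon clusters of the tissues. It was in 97.9% of near-exon heart clusters (97.3% to 98.4%) against 99.3% of deep ones (99.2% to 99.4%), and in 98.4% of near-exon muscle clusters (97.7% to 98.9%) against 99.5% of deep ones (99.3% to 99.6%). Near-exon minus deep was -1.41 points in heart (Fisher's exact test, adjusted p = 8.66e-11) and -1.08 points in muscle (p = 7.34e-05). Over genes with both classes only, the heart difference was -0.710 points (exact p = 0.00208). In myoblasts 86.1% of near-exon clusters held UGU (82.8% to 89.0%) against 86.2% of deep ones (84.8% to 87.5%), and the difference of -0.134 points was not called (exact p = 1).

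The difference in the tissues was not called once clusters with a base in an exon were set aside. Heart then had 99.1% against 99.3% (exact p = 0.456) and muscle 99.3% against 99.5% (p = 0.572). Of near-exon clusters that touched an exon, 88.3% held UGU in heart (84.5% to 91.5%), 89.5% in muscle (83.5% to 93.9%) and 76.0% in myoblasts (61.8% to 86.9%). Without contact with an exon, the shares were 99.1% (98.7% to 99.4%), 99.3% (98.7% to 99.7%) and 87.2% (83.8% to 90.1%).

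The sides did not differ detectably in UGU. The upstream share was 97.9% in heart, 98.5% in muscle and 84.3% in myoblasts, against downstream shares of 97.9%, 98.3% and 88.1% (exact p = 1, 0.95 and 0.374). All windows of the libraries' median cluster width (55, 54 and 38 nt) in the same introns held UGU less often. Upstream windows held it in 71.9%, 71.6% and 59.5%, downstream windows in 68.6%, 68.5% and 56.6% and deep windows in 68.1%, 67.6% and 55.3%. Near-exon clusters held a median of 5 UGU on each side in heart and in muscle, and 2 upstream and 3 downstream in myoblasts.

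**Figure D3:**
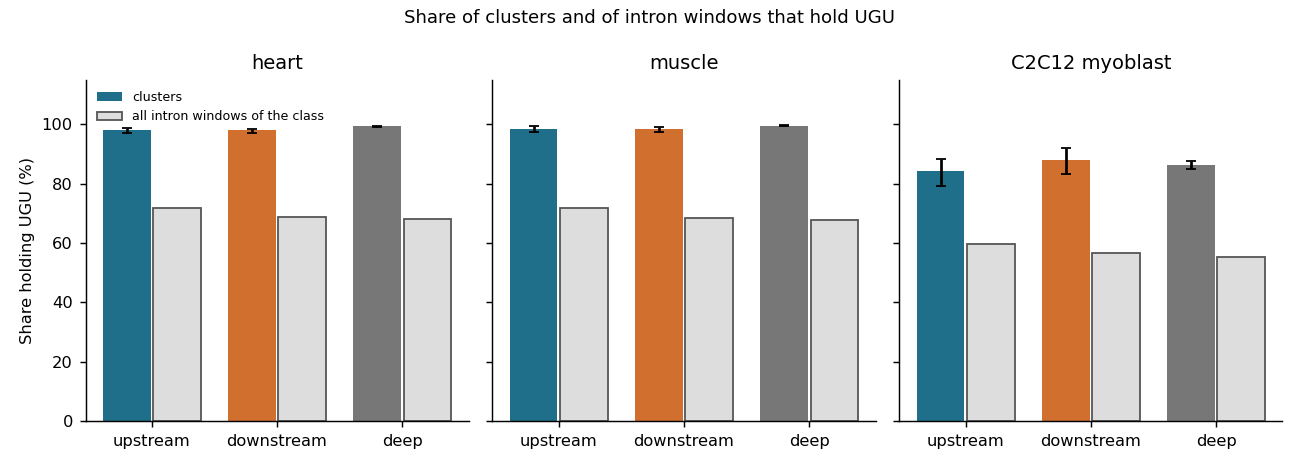
Share (%) of clusters holding UGU (darker bars, with exact 95% binomial intervals) and share of all intron windows of the same class (light outlined bars) upstream of exons, downstream of exons and deep in introns, in heart, muscle and C2C12 myoblasts. Cluster shares are 97.9% to 99.5% in the tissues and 84.3% to 88.1% in myoblasts, and window shares 55.3% to 71.9%.

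UGUGU was the most enriched 5mer on each side in each library, except upstream in myoblasts, where GUGUG was. UGUGU was 9.65 times as frequent in upstream heart clusters as in the upstream intron of the same genes and GUGUG 9.43 times, and downstream they were 9.41 and 8.55 times as frequent, against 11.7 and 11.1 times in deep clusters. In muscle UGUGU was 8.31 times as frequent upstream and 7.24 times downstream, against 10.2 times deep, and GUGUG, at 5.94 times, ranked only 7 downstream, behind UGUCU and other U-rich 5mers. In myoblasts UGUGU was 7.96 and 8.22 times as frequent, against 8.88 times deep. UCUGU and UGUCU were also among the 10 leading 5mers on both sides in all 3 libraries. So were GUCUG and GUUUG, which hold no UGU. An unbroken UGUGUGUG stood in 18.5% of upstream and 21.6% of downstream heart clusters, against 24.3% of deep ones. In muscle it stood in 15.7% of both, against 20.3%, and in myoblasts in 10.9% and 13.6%, against 13.0%. Windows of intron held it in 0.785% to 1.43%.

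Near-exon clusters were poor in adenine, as deep clusters were. A made up 13.5% of upstream and 14.0% of downstream cluster bases in heart, where the near-exon intron of the same genes has 25.3% and 24.8%. U made up 38.8% and 38.3% of cluster bases, where the intron has 31.1% and 29.5%. Muscle and myoblast clusters had 14.2% to 17.0% A and 38.8% to 41.1% U on the 2 sides. Deep clusters had 13.2% A and 41.0% U in heart, 14.2% and 42.9% in muscle and 16.9% and 40.1% in myoblasts. Widths were alike near exons and deep, with medians of 53 against 52 nt in heart, 50 against 49 nt in muscle and 37 nt in both classes in myoblasts.

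Annotated cassette exons were bound beside their edges more often than exons that no protein-coding transcript skips. In heart, 3.999% of upstream edges of internal cassette exons had a near-exon cluster (281 of 7027, 3.55% to 4.48%) against 1.16% of edges of always included exons (823 of 70830, 1.08% to 1.24%). Downstream edges had one in 4.15% (3.70% to 4.64%) against 1.67% (1.58% to 1.77%). In muscle, the shares were 2.71% (2.30% to 3.16%) against 0.795% (0.723% to 0.872%) upstream and 2.55% (2.16% to 2.99%) against 1.11% (1.03% to 1.20%) downstream. In myoblasts they were 1.04% (0.724% to 1.44%) against 0.631% (0.546% to 0.724%) and 0.770% (0.504% to 1.13%) against 0.586% (0.505% to 0.677%). The intervals lay apart in the tissues on each side. In myoblasts they overlapped downstream and met, at 0.724%, upstream. These are descriptions with no test, over all genes with a cluster in the library.

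Many of the bound cassette exons belong to Ttn. Without it, which was chosen after the data were seen, 3.54% (3.11% to 3.9996%) of upstream and 3.77% (3.33% to 4.24%) of downstream cassette edges were bound in heart, and 2.19% (1.83% to 2.61%) and 2.10% (1.74% to 2.51%) in muscle, still with intervals above those of always included exons, 1.16% and 1.67% in heart and 0.796% and 1.11% in muscle. Put the other way, cassette exons were 25.5% of internal exons with an upstream cluster in heart and 19.9% of those with a downstream one, where 9.03% and 9.10% of all internal exons of these genes are cassette exons. In muscle they were 26.04% and 19.2%, beside 9.37% and 9.43%, and in myoblasts 14.9% and 12.3%, beside 9.60% and 9.66%.

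**Figure D4:**
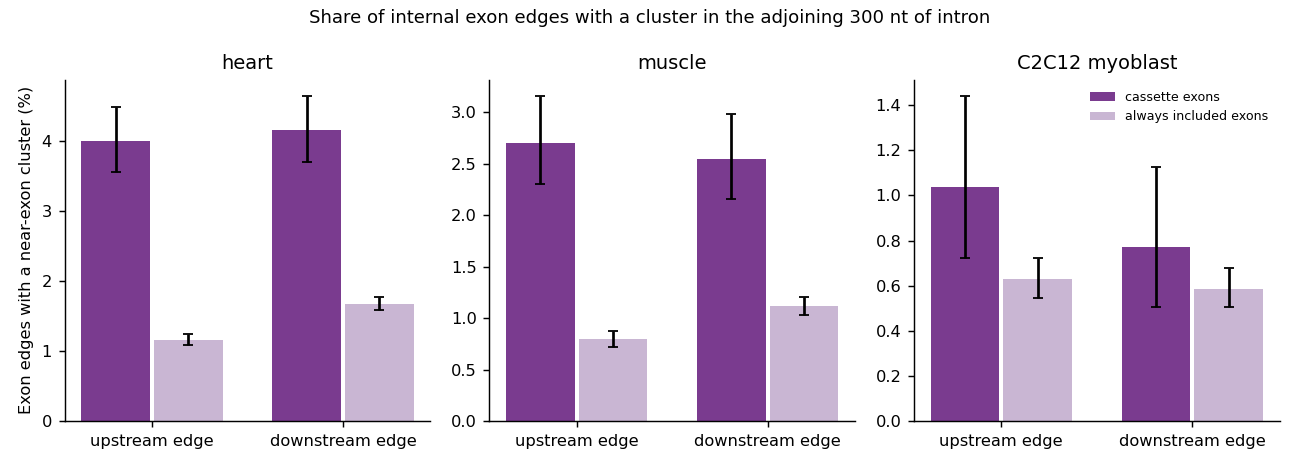
Share (%) of internal exon edges with a cluster in the adjoining 300 nt of intron (y axis), for annotated cassette exons (dark) and always included exons (light), on the upstream and downstream edge, in heart, muscle and C2C12 myoblasts. Bars carry exact 95% binomial intervals, and the y axes differ between panels. In heart and muscle the cassette share is 2.55% to 4.15% and the always included share 0.795% to 1.67%, and in myoblasts 0.770% and 1.04% against 0.586% and 0.631%.

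Bound cassette exons were more often of a length divisible by 3, which keeps the reading frame when the exon is skipped. In heart this held for 76.2% of those with an upstream cluster (70.7% to 81.0%) and 72.0% of those with a downstream one (66.5% to 77.1%), beside 57.1% and 56.8% of all cassette exons of the same genes. In muscle it held for 78.8% (71.6% to 85.0%) and 74.8% (67.0% to 81.6%), beside 56.8% and 56.6%. Without Ttn the heart shares were 72.4% (66.4% to 77.9%) and 68.5% (62.4% to 74.1%), beside 56.2% and 55.9%, and the muscle shares 73.2% (64.4% to 80.8%) and 68.6% (59.5% to 76.9%), beside 55.6% and 55.4%. In myoblasts, with 35 and 26 such exons, 57.1% (39.4% to 73.7%) and 65.4% (44.3% to 82.8%) were divisible by 3, beside 57.4% and 57.3%, inside the intervals.

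Very short exons were bound beside their edges most often in the tissues, though not clearly so downstream in muscle. Exons of at most 30 nt had a near-exon cluster at 4.05% of upstream edges in heart (2.99% to 5.35%) and 4.36% of downstream edges (3.27% to 5.67%), against 1.25% (1.15% to 1.36%) and 1.76% (1.63% to 1.89%) for exons of 101 to 200 nt. In muscle the shares were 2.82% (1.85% to 4.10%) and 2.33% (1.46% to 3.504%), against 0.828% (0.732% to 0.933%) and 1.14% (1.03% to 1.26%). Exons of 101 to 200 nt had the lowest shares in both tissues. Exons of 31 to 60 nt had 1.95% and 2.34% in heart and 1.07% and 1.59% in muscle. Downstream in muscle, the interval for 31 to 60 nt (1.25% to 2.001%) overlapped that of the shortest exons. So did that for 61 to 100 nt (1.17% to 1.54%). How far cassette exons account for the rate of the shortest exons was not tested. In myoblasts 7 of 510 upstream and 4 of 515 downstream edges of exons of at most 30 nt had a cluster. The intervals overlapped those of longer exons. A few exons had a near-exon cluster on each side: 79 of 2496 internal exons beside a cluster in heart (3.17%), 34 of 1329 in muscle (2.56%) and 0 of 446 in myoblasts.

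Near-exon heart clusters were met again in another library more often than deep ones. At least 1 base on the same strand was shared with a muscle or myoblast cluster by 23.5% of near-exon heart clusters (21.98% to 25%), against 20.0% of deep ones (19.5% to 20.5%), a difference of 3.47 points (Fisher's exact test, adjusted p = 4.66e-05). Without Ttn it was 1.85 points, with 21.8% near exons against 20.0% deep (exact p = 0.0374). In muscle 43.1% of near-exon clusters (40.6% to 45.5%) overlapped a cluster of another library, against 44.8% of deep ones (43.8% to 45.8%), and the difference of -1.71 points was not called (exact p = 0.347). In myoblasts it was 24.7% (21.0% to 28.7%) against 23.1% (21.5% to 24.8%), a difference of 1.58 points (exact p = 0.632). For muscle, near-exon minus deep sharing was -3.92 points without Ttn (exact p = 0.0109) and -3.19 points with a window of 500 nt (p = 0.0155).

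By count, most of this sharing was between the tissues. The tissue libraries also offer more clusters to overlap, 42263 and 24844 against 5115, and the part of library size was not tested. Of near-exon heart clusters, 668 overlapped a muscle cluster and 101 a myoblast cluster, and of near-exon muscle clusters 676 overlapped a heart cluster and 58 a myoblast cluster. Of 510 near-exon myoblast clusters, 104 (20.4%) overlapped a heart and 61 (11.96%) a muscle cluster. The split was much the same away from exons. A muscle cluster was met by 18.6% of deep heart clusters and a myoblast cluster by 2.43%, beside 21.6% and 3.26% near exons. For muscle, 43.95% of deep clusters met a heart cluster and 3.18% a myoblast cluster, beside 41.8% and 3.58% near exons. Deep myoblast clusters met a heart cluster in 20.1% and a muscle cluster in 11.2%. Sharing of upstream and downstream clusters was not called different, with 25.04% against 22.3% in heart, 43.5% against 42.7% in muscle and 23.6% against 25.9% in myoblasts (exact p = 0.158, 0.915 and 0.781). In heart the difference was called when all annotated transcripts defined the exons, at 25.95% against 21.96% (exact p = 0.0286).

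By gene, near-exon clusters lay in 1796 genes in heart, 1038 in muscle and 453 in myoblasts, which is 26.5%, 19.7% and 16.7% of the matched genes with any cluster in that library. A single near-exon cluster was found in 66.4%, 72.4% and 89.6% of these genes. Of the heart genes 620 also had a near-exon cluster in muscle (34.5% of the heart and 59.7% of the muscle genes). Heart and myoblasts had 198 such genes in common (11.02% and 43.7%), and muscle and myoblasts 125 (12.04% and 27.6%). In 104 genes all 3 libraries had a near-exon cluster, of 2448 with one in any library.

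The gene of a giant sarcomere protein, Ttn, had the most bound exon edges in both tissues, followed in muscle by Neb. Ttn (Entrez 22138, chr2:76542037-76820604, minus strand), for titin, the elastic filament of the sarcomere, had 91 near-exon clusters in heart and 80 in muscle, at 78 and 70 exon edges, and 0 in myoblasts. Of the heart clusters 71 overlapped a muscle cluster, and of the muscle clusters 69 overlapped a heart cluster. Upstream clusters were 47 of 91 in heart and 42 of 80 in muscle, and 84 and 72 lay beside annotated cassette exons. Neb (Entrez 17996), for nebulin, which lines the thin filament of skeletal muscle, had 0 in heart, 18 in muscle and 0 in myoblasts. Nrap, for a nebulin-related anchoring protein, had 5, 6 and 0. All intronic clusters numbered 108 in heart and 92 in muscle for Ttn, and 36 in muscle for Neb. Ttn has 347 introns, Neb 162 and Nrap 41, against a median of 10 in heart and 11 in muscle over all genes with a cluster.

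The ryanodine receptors, which release calcium from the sarcoplasmic reticulum, differed by tissue and by side of the exon. Ryr2 (Entrez 20191), the heart isoform, had 23 near-exon clusters in heart, 3 upstream and 20 downstream, and 0 in muscle and myoblasts. Ryr1 (Entrez 20190), the skeletal isoform, had 1 in heart, downstream, and 18 in muscle, 13 upstream and 5 downstream, and 0 in myoblasts. None of the near-exon clusters in either gene was beside an annotated cassette exon. Cacna1c, for the pore subunit of the heart L-type calcium channel, had 15, 1 and 0, with 10 of the 15 heart clusters beside cassette exons. All intronic clusters numbered 239 for Ryr2 and 214 for Cacna1c in heart, and 48 for Ryr1 in muscle. Over all genes, 12.5% of intronic clusters were near-exon in heart and 15.1% in muscle. Ryr2, Cacna1c and Ryr1 have 104, 52 and 105 introns.

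Other genes with many bound edges in the tissues encode scaffold and cytoskeletal proteins. Pde4dip, for a scaffold of phosphodiesterase and Golgi, had 16 in heart, 11 in muscle and 0 in myoblasts, and 8 of the 16 heart clusters overlapped a muscle cluster. Clasp1 and Clip1, for proteins that bind microtubule plus ends, had 14, 3 and 0 and 11, 7 and 0. Lmo7 had 12, 4 and 0, Svil, for the actin-binding supervillin, 9, 9 and 0, and Dst, for the plakin dystonin, 9, 6 and 0.

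In myoblasts no gene had more than 4 near-exon clusters. Phldb2 had the most, with 4 in myoblasts beside 3 in heart and 2 in muscle, and 3 of its 4 myoblast clusters overlapped a muscle cluster. Myof, for the membrane-fusion protein myoferlin of myoblasts, had 0 in heart, 0 in muscle and 3 in myoblasts. Plec, for the plakin plectin, had 0, 1 and 3, and Utrn, for the dystrophin homologue utrophin, 6, 0 and 3. Sf3b3, a subunit of the U2 splicing particle, had 1, 2 and 3, Ubap2 1, 1 and 3, and Arhgap10 2, 1 and 2.

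**Figure D5:**
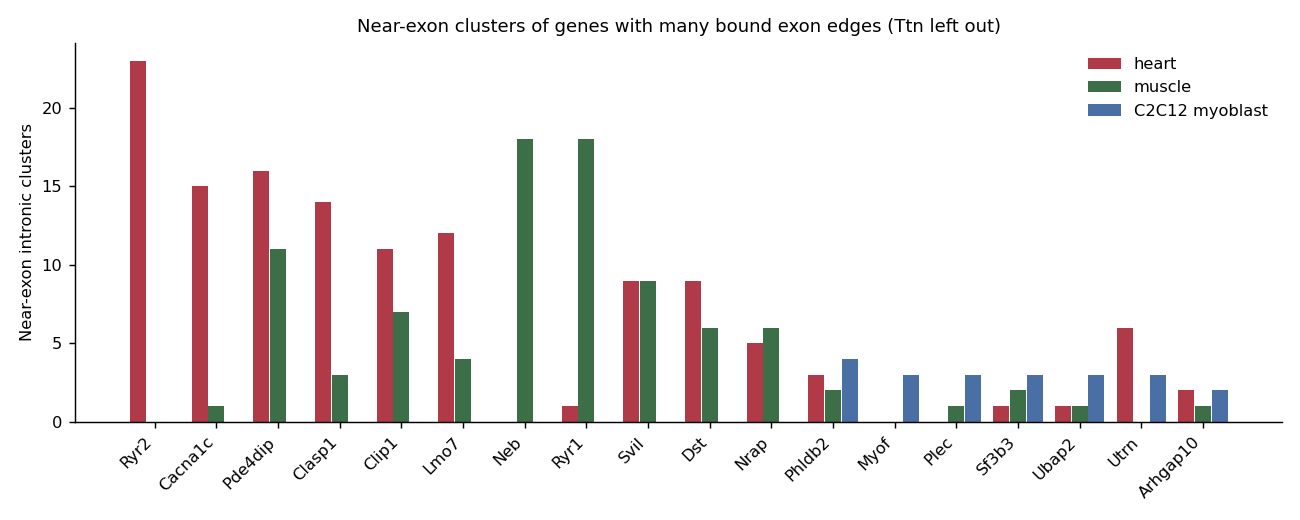
Number of near-exon intronic clusters (y axis) in heart, muscle and C2C12 myoblasts for genes among those with the most bound exon edges in each library, without Ttn, which had 91, 80 and 0. Of the genes plotted, Ryr2 (23) and Pde4dip (16) stand highest in heart, Neb and Ryr1 (18 each) in muscle, and none is above 4 in myoblasts.

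Among genes altered in splicing in myotonic dystrophy, 28 of the 36 with any heart cluster had a near-exon one (77.8%), as did 28 of 37 in muscle (75.7%) and 6 of 15 in myoblasts (40%). The share over all genes with a cluster was 26.5%, 19.7% and 16.7%. These genes have a median of 20.5, 20 and 20 introns, against 10, 11 and 12 over all genes with a cluster, and the part of intron number in the share was not tested. Beside Ttn, Neb, Ryr1, Clasp1 and Nrap, the list holds Mbnl2, for a muscleblind splicing factor, with near-exon clusters numbering 6 in heart, 5 in muscle and 0 in myoblasts, and Mef2d, with 7, 5 and 2. Tnnt2 and Tnnt3, for the heart and the fast skeletal troponin T, had 8, 0 and 0 and 1, 6 and 0. Camk2d, for a calcium-dependent kinase, had 9, 1 and 2, and Bin1, which shapes the T-tubule membrane, 1, 4 and 0.

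Sarcomere and Z-disc genes had near-exon clusters in 21 of 35 members with a cluster in heart (60%), 25 of 33 in muscle (75.8%) and 3 of 10 in myoblasts (30%), against 26.5%, 19.7% and 16.7% over all genes with a cluster. The medians were 15, 18 and 15.5 introns, against 10, 11 and 12 over all genes. Beside those already named, Myom1 and Myom2, for M-band proteins, had 8, 6 and 0 and 7, 5 and 1, Tpm1, for tropomyosin, 7, 4 and 0, and Pdlim5 5, 8 and 1. Ion channel and calcium handling genes had one in 23 of 38 (60.5%), 16 of 30 (53.3%) and 4 of 10 (40%), against the same shares over all genes, with medians of 20.5, 21 and 22 introns. Atp2a2, the calcium pump of the sarcoplasmic reticulum in heart and slow muscle, had 6, 2 and 1, and its site at chr5:122917015-122917049 was common to all 3 libraries. Slc8a1, the sodium-calcium exchanger, had 8, 1 and 1.

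Splicing regulators had near-exon clusters in 28 of 47 members with a cluster in heart (59.6%), 17 of 45 in muscle (37.8%) and 9 of 36 in myoblasts (25%). The shares over all genes with a cluster were 26.5%, 19.7% and 16.7%. Splicing regulators had a median of 11 introns, against 10, 11 and 12 over all genes with a cluster. Rbfox1, a regulator of muscle and neuronal exons, had 1, 6 and 0, and Rbfox2 4, 4 and 0. Mbnl1 had 2, 2 and 1, all downstream of the exon, and Ptbp2 2, 1 and 2, all upstream. U2af2, the large subunit of the factor that binds the pyrimidine tract, had 5, 1 and 0, Hnrnpc 2, 3 and 1, and Celf2, the paralog of Celf1, 2, 1 and 0. Membrane skeleton and transport genes had one in 23 of 40 (57.5%), 15 of 33 (45.5%) and 4 of 21 (19.0%). In myoblasts this was close to the 16.7% over all genes with a cluster. Their medians were 23.5, 25 and 27 introns, against 10, 11 and 12 over all genes with a cluster. Sptan1, for alpha-II spectrin, had 11, 0 and 0, Epb41, for protein 4.1, 5, 2 and 0, and Map4, a microtubule-associated protein, 2, 5 and 0.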

How the data were processed

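Mouse CELF1 CLIP-seq clusters from 1 heart ventricle, 1 muscle and 1 C2C12 myoblast library were used as deposited. As the methods describe, the authors removed copies of the same read, cut adapters off, mapped reads to mm9 and splice junctions with Bowtie and TopHat (the sources used here give no versions), and called clusters per library by a Poisson test in 30 nt windows that allows for gene expression and pre-mRNA length. The deposited files hold cluster positions, strand and Entrez identifier. A further deposited column is 1e-06 throughout and was not used. Clusters have no read numbers, so the depth behind each is unknown, and the number of clusters limits the precision. The narrowest is 35 nt, which leaves out shorter stretches.

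Positions are in mm9, counted from 1, on NCBIM37 with GENCODE vM1. Of 8037 gene identifiers, 7938 (98.8%) were matched by symbol or synonym (RefSeq table of GRCm38.p6, names only) to a gene with a protein-coding transcript. Of the clusters, 592, 204 and 51 lay in unmatched genes in heart, muscle and myoblasts, and 296, 199 and 23 outside the protein-coding transcripts of their gene. Introns are stretches that no exon of a protein-coding transcript covers. An exon is a cassette exon where an annotated intron spans it. Densities, exon edges and window backgrounds cover every gene with a cluster in the library. Sharing means at least 1 common base on the same strand. The motifs UGU and UGUGUGUG were searched on the RNA strand only, and they overlap each other.

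Shares have exact Clopper-Pearson and densities exact Poisson 95% intervals. Shares were compared with Fisher's exact test (two-sided, p adjusted by Benjamini-Hochberg over 18 tests), and the 2 UGU contrasts between libraries by a test of log odds ratios (0.5 added per cell) adjusted over 6. Called means adjusted p under 0.05. Alternatives changed the window (150 or 500 nt), the transcripts, the exon edges, contact with exons, cluster width (at least 40 nt), repeats within genes, merging (50 nt), deep introns (over 1000 nt), genes with both classes, and the overlap (50%). Named genes were the 8 with the most bound exon edges per library, those of sites common to all libraries, and members of 5 gene lists, and some of these are not reported here. The members and lists were chosen with earlier results of these data known. Scripts were tested on simulated data and used scipy 1.17.1, numpy 2.4.6, pysam 0.24.0, pandas 2.3.3 and matplotlib 3.10.9 under Python 3.11.15, and samtools 1.23.1.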

Additional observations from a re-analysis of the deposited data

Results flagged for a closer look

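The contrast of UGU shares between near-exon and deep clusters differed between the tissues and the myoblasts. The odds ratio of near-exon against deep clusters was 0.324 in heart and 0.984 in C2C12 myoblasts, a difference of -1.11 in the natural log of the odds ratio (SE 0.204). For muscle, whose odds ratio was 0.322, the difference from C2C12 myoblasts was -1.12 (SE 0.280). Both passed the threshold of 0.05 in a two-sided test of the difference adjusted over 6 tests, and heart minus muscle, at 0.00686 (SE 0.285), did not. These tests cover counting error only. Without clusters that had a base in an exon, near-exon minus deep was -0.182 points in heart, -0.155 in muscle and 0.962 in myoblasts, none of them called. The difference between libraries was not tested without these clusters. Myoblast clusters were narrower, with a median of 37 nt near exons against 53 nt in heart and 50 nt in muscle, and the part of width in these differences was not tested.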

How the results depend on the processing

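Of 198 recomputed tests, 185 kept their side of the threshold with no called difference reversed. In 14 of these, none of them called, the difference changed sign. Another 3 were reversed with the main or the recomputed difference called, 4 became called and 6 were no longer called. Of 12 recomputed density ratios, 4 stayed within the counting interval. With at most 1 cluster per gene and class, the near-exon share was 2.50 points higher in heart than in muscle, 7.13 higher in heart than in myoblasts and 4.63 higher in muscle than in myoblasts, each reversed. Without Ttn, muscle minus myoblasts was -2.03 points. The upstream share in heart and muscle minus myoblasts was -6.47 and -5.70 points at 150 nt, and -2.69 and -0.651 points for clusters of at least 40 nt. At 150 nt the near-exon share was -1.57 points for heart minus muscle and -2.00003 for heart minus myoblasts, both still called, with fewer members by construction. The UGU difference stayed called at -2.23 (150 nt) and -0.937 (500 nt) points in heart and -1.82 and -0.653 in muscle. Without clusters that touch an exon, the UGU share near exons minus deep was -0.182 points in heart and -0.155 in muscle. Muscle sharing near exons minus deep was -3.19 points at 500 nt and -3.92 without Ttn, and heart sharing upstream minus downstream was 3.99 points when all transcripts defined exons. Near-exon over deep density with only genes that have an intronic cluster was 1.30 upstream and 1.73 downstream in heart, 1.69 and 2.05 in muscle and 2.46 and 2.24 in myoblasts. In introns over 2000 nt it was 1.67 downstream in heart and 1.23 upstream in muscle. Deep density was pooled over both sides in these ratios, so they do not compare the sides. The causes were not tested. No paired analysis was possible because each source has 1 library. Read depth behind each cluster is unknown, and the 510 myoblast members give the widest intervals.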
